A study of Bos taurus with 23 samples.

Results

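EBF4 (early B-cell factor 4, ENSBTAG00000037757) and ZSCAN12 (a zinc finger protein with a SCAN domain, ENSBTAG00000008943) are 2 of the 24616 genes counted in the endometrium of these cows. They were taken from the study's list of biomarker genes of uterine receptivity, on which EBF4 is an UP gene (more expressed in cows that became pregnant) and ZSCAN12 a DOWN gene. The list was chosen partly on cows of this series, so the contrast between pregnant and non-pregnant cows is given here as a description with no test. Parity, days from calving and the co-variation with other genes within pregnancy groups were not the measures on which the genes were chosen.

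The early B-cell factors are DNA-binding proteins with a helix-loop-helix part for dimerization. The family is known from B lymphocyte and neuronal development and from mesenchymal and fat cells. ZSCAN12 joins a SCAN domain, through which such proteins pair with each other, to a row of C2H2 zinc fingers that can bind DNA, and its own target genes are little known. In the bovine uterus, the endometrium of early dioestrus is a progesterone-exposed mixture of luminal and glandular epithelium, stroma, vessels and immune cells.

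Endometrial biopsies were taken in early dioestrus from 23 lactating Holstein cows, and RNA sequencing gave 1 library per cow. In the following cycle each cow received 1 in vitro produced embryo, and pregnancy status was determined after slaughter. There were 12 pregnant (R) and 11 non-pregnant (nonR) cows. Of the cows, 12 were of parity 1, 5 of parity 2 and 6 of parity 3, and the embryo was transferred 128 to 274 days after calving (median 174 days). The labels name no other treatment and no ages. Each library was made from 1 biopsy of a mixed tissue, so fewer cells of a type and less RNA per cell cannot be told apart. The tissue could not be checked against its defining markers, because the files name genes by Ensembl identifier and only the study's list paired identifiers with symbols here.

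Reads counted in genes ranged from 6920879 to 27357249 per library. The first principal component of the transformed counts (43.2% of the variance) set 4 libraries apart, at 49.7 to 97.8 against 9.75 or less for the other 19. These were replicates 4 and 6 of the non-pregnant cows and replicates 22 and 23 of the pregnant cows. In pregnant replicates 20 and 21, reads outside annotated genes made up 75.5% and 76.7%, while no other library exceeded 59.6%. Results that moved with these libraries are given also without these 4, these 2 or all 6. The 8 pregnant and 9 non-pregnant cows that then remain equal in number the Holstein cows the study selected its list on, but the labels do not say whether they are the same animals.

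Neither gene overlapped another gene in the RefSeq annotation of ARS-UCD2.0, a later assembly than the UMD3.1 of the count files, so no coordinates are given. EBF4 lay between CPXM1 (a carboxypeptidase-like protein) and IDH3B (a subunit of mitochondrial isocitrate dehydrogenase). ZSCAN12, with the older name ZNF96, had ZSCAN31, PGBD1 and ZSCAN26 as its next coding genes on one side, so that 2 of its 6 nearest coding neighbours carry a ZSCAN name. Members of this zinc finger family share sequence, and how reads that fit several genes were counted is not given in the sources used here.

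EBF4 was detected in all 23 cows with 25 to 470 reads. Expression is given as CPM, counts scaled to library size after TMM normalization. EBF4 had a mean of 9.49 CPM ± 3.93 (SD, n = 23), with a coefficient of variation of 41.4%. At the median of 177 reads, counting error alone gives a coefficient of variation of 7.52%, so the spread between cows exceeded counting error. Pregnant replicate 22 was lowest, at 1.35 CPM (exact 95% Poisson interval 0.871 to 1.99, counting error only), and pregnant replicate 7 highest, at 16.9 CPM (15.4 to 18.5). The highest cow thus had 12.6 times the EBF4 of the lowest, and both were pregnant cows of parity 1. The SD of the transformed values (vst, close to log2) within pregnancy groups was 0.47, larger than that of 73.3% of the 2075 genes with a mean CPM within 0.5 log2 units of EBF4. Without the 4 libraries that stood apart the SD was 0.28, larger than that of 59.9% of those genes.

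ZSCAN12 was measured with 198 to 803 reads per cow. Its mean was 28.0 CPM ± 7.68 (SD, n = 23), and its coefficient of variation of 27.4% was again above the 4.24% that counting error gives at the median of 557 reads. Non-pregnant replicate 4 was lowest, at 13.7 CPM (11.9 to 15.6). Non-pregnant replicate 1 was highest, at 48.3 CPM (lower bound 44.8), and the next cow, pregnant replicate 21, had 34.7 CPM. The highest cow had 3.52 times the ZSCAN12 of the lowest. The vst SD of ZSCAN12 within pregnancy groups was 0.35, larger than that of 62.3% of 2676 genes of like mean CPM, or 0.26 and 53.1% without the 4 libraries. No gene length was used, so the levels of EBF4 and ZSCAN12 were not compared with each other.

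**Figure D1:**
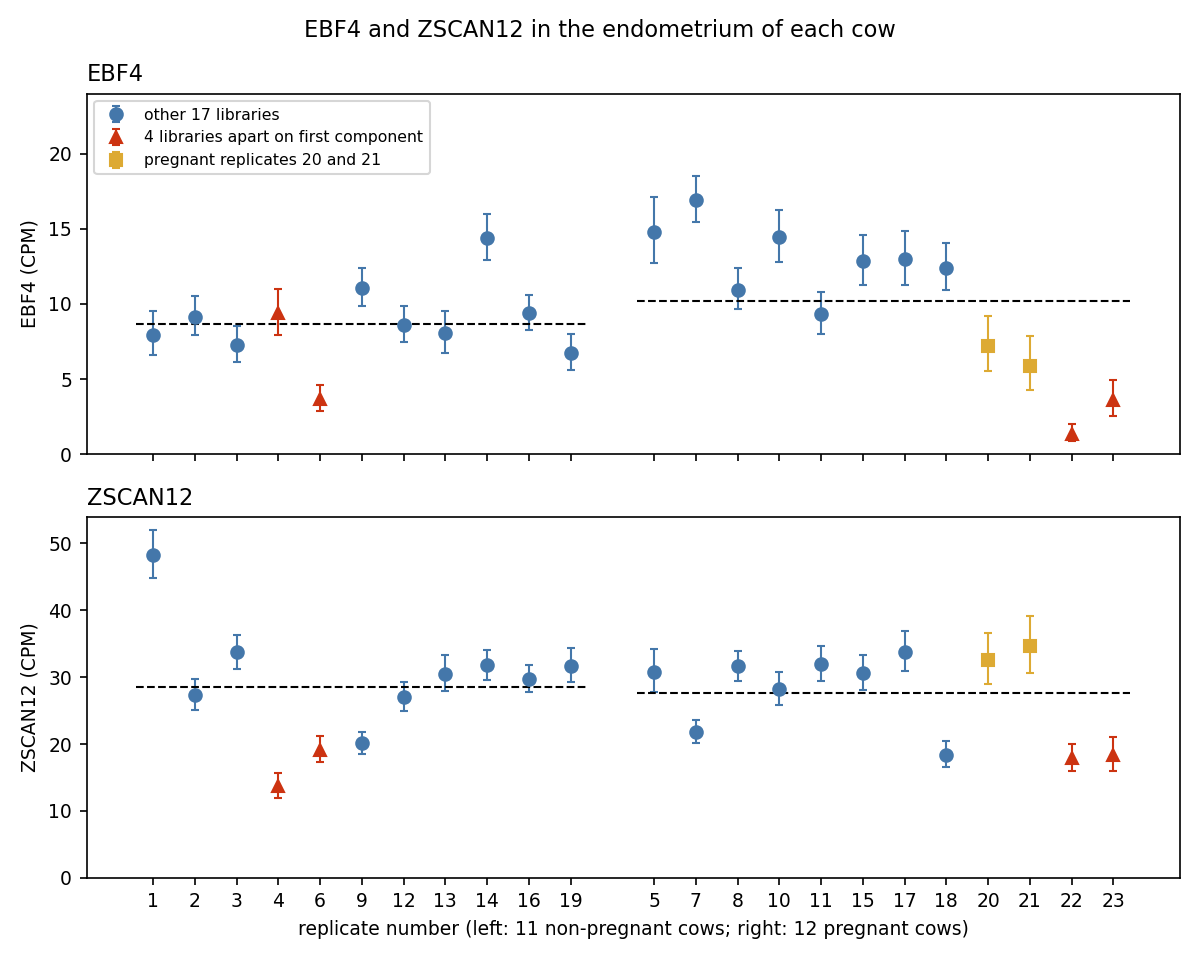
EBF4 (top) and ZSCAN12 (bottom) in CPM for each of the 23 cows by replicate number, with exact 95% Poisson intervals as bars and group means over all cows as dashed lines. Red triangles are the 4 libraries apart on the first principal component and yellow squares pregnant replicates 20 and 21; EBF4 runs from 1.35 to 16.9 CPM and ZSCAN12 from 13.7 to 48.3 CPM.

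The 4 libraries apart on the first component were low in ZSCAN12, and 3 of the 4 were low in EBF4. ZSCAN12 lay at 13.7, 19.1, 17.9 and 18.4 CPM in replicates 4 and 6 (non-pregnant) and replicates 22 and 23 (pregnant). In the other 19 libraries it ranged from 18.4 to 48.3 CPM (mean 30.3 CPM ± 6.33, SD), and the groups overlapped only through pregnant replicate 18, at 18.4 CPM. EBF4 lay at 9.40, 3.70, 1.35 and 3.62 CPM in the same 4 libraries and at 5.85 to 16.9 CPM in the other 19 (mean 10.5 CPM ± 3.20, SD). For EBF4, 3 of the 4 libraries were below each of the other 19, and non-pregnant replicate 4 was inside their range. These libraries were set apart by the expression of all genes, so this is a description. Without them, the coefficient of variation fell to 30.3% for EBF4 and 20.9% for ZSCAN12.

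Among the pregnant cows, replicates 20 and 21 lay toward the low end in EBF4 and toward the high end in ZSCAN12. EBF4 had 7.18 and 5.85 CPM there, below the 9.32 CPM or more of the 8 pregnant cows outside the 6 libraries. Non-pregnant replicates 19 and 3 had like EBF4 values, 6.72 and 7.28 CPM. ZSCAN12 had 32.6 and 34.7 CPM in pregnant replicates 20 and 21, and 34.7 CPM was the highest value of the pregnant cows. Pregnant replicate 17, at 33.8 CPM, was close to it. The part of these libraries' low share of reads in genes in either value was not tested.

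Between pregnant and non-pregnant cows, EBF4 values overlapped. EBF4 ran from 1.35 to 16.9 CPM in the 12 pregnant cows (median 11.7, mean 10.2 ± 4.81 SD). In the 11 non-pregnant cows it ran from 3.70 to 14.4 CPM (median 8.59, mean 8.70 ± 2.67 SD). The group means had a ratio of 1.17, and the log2 difference (pregnant minus non-pregnant) was 0.23 (SE 0.29, edgeR fit over all genes). The median of the non-pregnant cows was exceeded by 8 of the 12 pregnant cows, 3 of which also exceeded the highest non-pregnant cow, and 4 fell short of it. Those 4 were replicates 20 to 23, the pregnant cows among the 6 libraries named above.

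EBF4 by pregnancy status moved with the choice of libraries. With single cows left out the log2 difference lay between 0.14, without non-pregnant replicate 6, and 0.35, without pregnant replicate 22, and it was 0.15 without pregnant replicate 7, the highest cow. Without the 4 libraries that stood apart it was 0.35 (SE 0.18), and without pregnant replicates 20 and 21 it was 0.32 (SE 0.30). Without all 6, EBF4 averaged 13.1 CPM ± 2.35 (SD) over 8 pregnant cows and 9.18 CPM ± 2.33 (SD) over 9 non-pregnant cows, a ratio of 1.43. The log2 difference was then 0.49 (SE 0.15), and the non-pregnant median was exceeded by 8 of 8 pregnant cows. Non-pregnant replicate 14, at 14.4 CPM, stayed above 5 of these 8. The 6 libraries left out include each of the 4 pregnant cows below that median.

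ZSCAN12 was nearly level between the groups. It ran from 17.9 to 34.7 CPM in the 12 pregnant cows (median 30.7, mean 27.6 ± 6.51 SD). In the 11 non-pregnant cows it ran from 13.7 to 48.3 CPM (median 29.7, mean 28.5 ± 9.08 SD), so that the pregnant range lay inside the non-pregnant one. The log2 difference was -0.05 (SE 0.17), less than its own error. It was 0.04 without non-pregnant replicate 1, the highest cow, and -0.14 (SE 0.15) without the 6 libraries. The non-pregnant median was exceeded by 7 of the 12 pregnant cows.

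Parity class asks whether a cow that had calved once differed from one that had calved more often. EBF4 had 9.57 CPM ± 4.35 (SD, n = 12) in cows of parity 1 and 9.41 CPM ± 3.62 (SD, n = 11) in cows of parity 2 or 3. The log2 difference, with pregnancy status in the model, was -0.01 (SE 0.30, 95% interval -0.62 to 0.60; edgeR quasi-likelihood test, Benjamini-Hochberg adjusted p = 0.998). EBF4 ranged from 1.35 to 16.9 CPM at parity 1, 3.70 to 14.4 CPM at parity 2 and 5.85 to 14.4 CPM at parity 3. Each later range lay inside the first, and the 3 means, 9.57, 9.13 and 9.64 CPM, were closer to each other than 1 SD.

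ZSCAN12 was higher on average in cows of parity 2 or 3, without passing the test. It had 25.7 CPM ± 6.89 (SD, n = 12) at parity 1 and 30.5 CPM ± 8.01 (SD, n = 11) at parity 2 or 3. The log2 difference was 0.25 (SE 0.17, 95% interval -0.10 to 0.60; edgeR p = 0.160, adjusted p = 0.981). Without the 4 libraries that stood apart, of which 3 were of parity 1, it was 0.13 (SE 0.14, edgeR adjusted p = 0.991). By parity number the means were 25.7, 31.6 and 29.6 CPM, and the ranges of 13.7 to 33.8, 19.1 to 48.3 and 18.4 to 34.7 CPM overlapped.

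For parity class, edgeR called 0.0% of 14852 genes, and 520 had an unadjusted p below 0.05. The Wald test of DESeq2, run without edgeR's filter on low counts, gave an adjusted p for 23087 genes. It called 0 genes as well, and 1007 were below 0.05 unadjusted, a count over a larger set of genes. Of the 48 other genes of the study's list, 0 were called and 24 were higher at parity 2 or 3, with a median log2 difference of -0.0015 against -0.0097 over all genes tested.

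Days from calving to embryo transfer gave a positive slope for EBF4 that did not pass the test. The fitted slope was 0.37 log2 units per 100 days (SE 0.30, 95% interval -0.26 to 1.00; edgeR adjusted p = 1.000), with 0.23 to 0.46 when single cows were left out. The slope was 0.31 (SE 0.18) without the 4 libraries that stood apart and 0.19 (SE 0.15) without the 6. Pregnant replicates 7 and 15 and non-pregnant replicate 14 lay at 261 to 274 days and had 16.9, 12.9 and 14.4 CPM of EBF4. In a rank test on vst values with group means removed, added after seeing the data, rho was 0.17 (permutation p = 0.438, adjusted p = 0.875 over both genes). Pearson's r was 0.27 (permutation p = 0.245) and 0.12 without the 2 cows farthest from the median day.

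ZSCAN12 had a slope on days from calving near 0. The fitted slope was 0.04 log2 units per 100 days (SE 0.20, 95% interval -0.37 to 0.44; edgeR adjusted p = 1.000), and it was -0.09 (SE 0.21) with parity class in the same model. Spearman's rho was -0.0059 (permutation p = 0.981, adjusted p = 0.981) and Pearson's r 0.0048 (permutation p = 0.983), and r was -0.11 without the 2 farthest cows. The highest and the lowest cow of all, non-pregnant replicates 1 and 4, lay close together at 212 and 219 days. For this slope edgeR called 0.0% of 14852 genes, with 339 at an unadjusted p under 0.05. DESeq2, again without that filter and with an adjusted p for 23472 genes, called 0 genes, with 802 under 0.05 unadjusted. Of the 48 other list genes 0 were called, 32 had a positive slope, and their median was 0.08 against 0.01 over all genes.

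**Figure D2:**
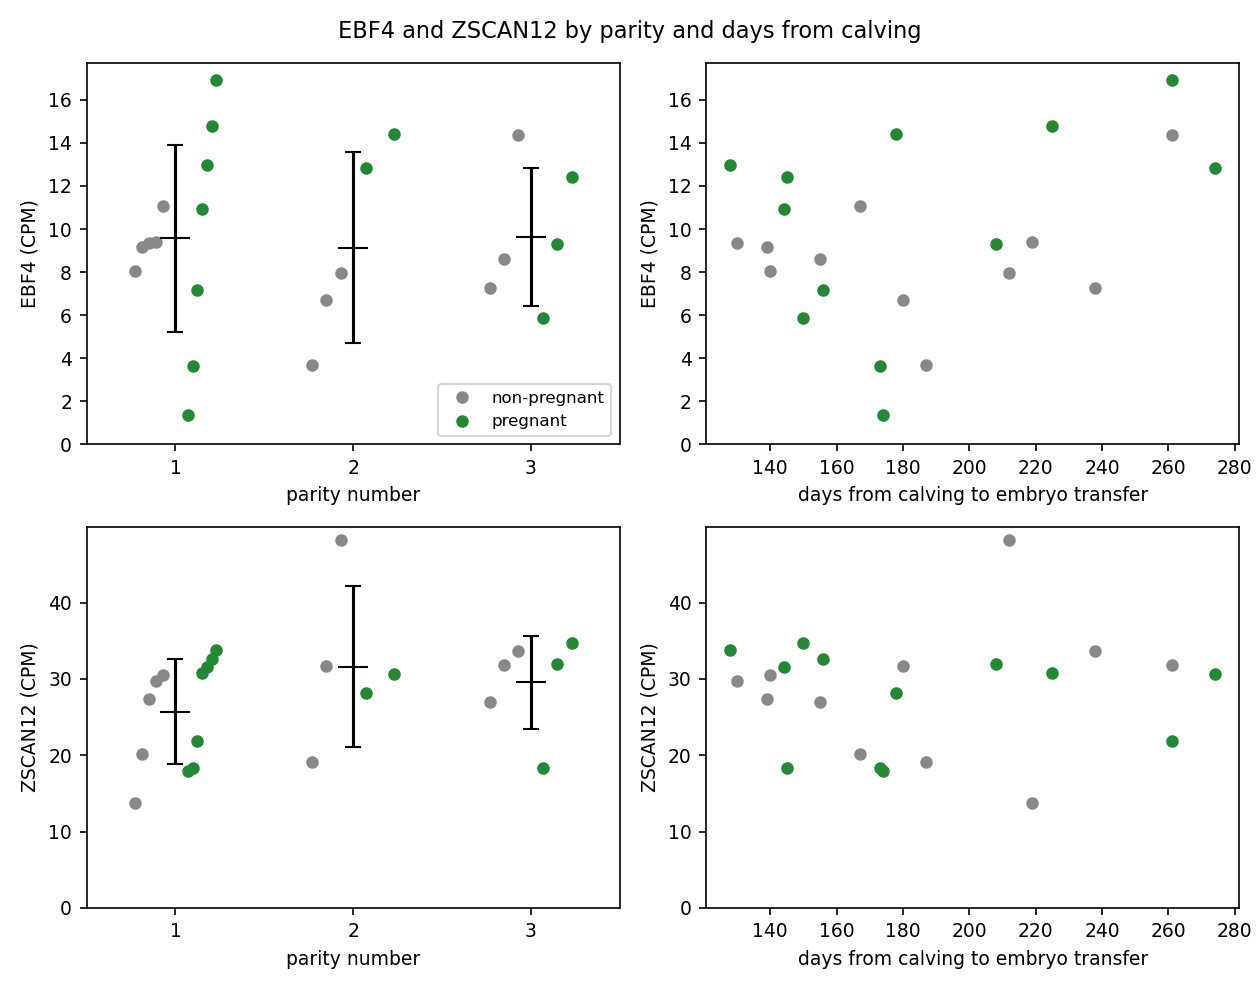
EBF4 (top) and ZSCAN12 (bottom) in CPM against parity number (left) and days from calving to embryo transfer (right), 1 point per cow, green for the 12 pregnant and grey for the 11 non-pregnant cows. Black bars on the left are means with SD over all cows of a parity; EBF4 means are 9.57, 9.13 and 9.64 CPM and ZSCAN12 means 25.7, 31.6 and 29.6 CPM.

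The parity difference was also compared between pregnant and non-pregnant cows. EBF4 in pregnant cows was 9.68 CPM ± 5.82 (SD, n = 7) at parity 1 and 11.0 CPM ± 3.41 (SD, n = 5) at parity 2 or 3, and in non-pregnant cows 9.41 CPM ± 1.08 (SD, n = 5) and 8.11 CPM ± 3.51 (SD, n = 6). The interaction was 0.40 log2 units (SE 0.60, edgeR adjusted p = 0.988), and it was -0.12 without the 4 libraries apart. It was 0.20, 0.26 and 0.25 without pregnant replicate 22, pregnant replicate 23 or non-pregnant replicate 6, and 0.64 without non-pregnant replicate 14. The 5 non-pregnant cows of parity 1 were the most alike in EBF4, at 8.06, 9.15, 9.37, 9.40 and 11.1 CPM, whereas the 7 pregnant cows of parity 1 spread from 1.35 to 16.9 CPM. The low end of the latter was replicates 22 and 23, without which the other 5 ran from 7.18 to 16.9 CPM (SD 3.74 CPM). The difference in spread was not tested.

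ZSCAN12 in pregnant cows was 26.7 CPM ± 7.04 (SD, n = 7) at parity 1 and 28.8 CPM ± 6.26 (SD, n = 5) at parity 2 or 3, and in non-pregnant cows 24.3 CPM ± 7.21 (SD, n = 5) and 31.9 CPM ± 9.57 (SD, n = 6). The interaction was -0.29 (SE 0.34, edgeR adjusted p = 0.988). It was -0.13 without non-pregnant replicate 4, -0.14 without non-pregnant replicate 1, -0.15 without pregnant replicate 18 and -0.42 without the 4 libraries apart. Across all genes edgeR called 0.0% of 14852 for the interaction, with 443 at an unadjusted p under 0.05, and 0 of the 48 other list genes. DESeq2 was run without edgeR's filter on low counts, gave an adjusted p for 23155 genes, and had 759 under 0.05 unadjusted. It called 1 gene, ENSBTAG00000046980, named after its value was seen, with a log2 of 20.3. The counts of this gene are not given here, and the value is not read as the size of an effect.

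EBF4 varied across cows together with many other genes. Correlations were taken over the vst values of the 23 cows with pregnancy group means removed, and tested by 100000 permutations within pregnancy groups with p-values adjusted over the 14851 other genes, and a gene passed at an adjusted p under 0.05. Spearman's rho with EBF4 passed for 1301 genes (8.76% of all genes), 816 positive (5.49%) and 485 negative (3.27%). Of the 48 other genes of the study's list, 11 passed, 8 positive and 3 negative. The study chose the list on some of these cows, so its genes are not independent evidence of a relation to EBF4.

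All 8 list genes with a positive call were UP genes, as EBF4 is. PPIC (cyclophilin C, a peptidyl-prolyl isomerase of the secretory pathway) had the highest rho, at 0.84 (permutation p = 2e-05, adjusted p = 0.0022). Pearson's r was 0.88 (permutation p = 2e-05), and 0.78 without the 2 cows farthest from the median of EBF4 (non-pregnant replicate 6 and pregnant replicate 22). PPIC ran from 15.0 CPM in pregnant replicate 22 to 77.0 CPM in pregnant replicate 7, the same cows in which EBF4 was lowest and highest. ROR2, a receptor tyrosine kinase for Wnt ligands, followed with a rho of 0.77, and it too was lowest in pregnant replicate 22, at 5.00 CPM.

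RARRES1 (a retinoic acid responsive gene) had a rho of 0.76 with EBF4, CLECL1 (a C-type lectin-like protein) 0.75, COL26A1 (a collagen chain) 0.72 and TMEM45A (a transmembrane protein) 0.68. TLE4, a co-repressor of the Groucho family, had a rho of 0.64 and MYH10, a heavy chain of non-muscle myosin, 0.62. Adjusted p-values of these 6 genes and ROR2 were 0.0053 to 0.048, the last for MYH10. COL26A1 lay at 0.986 to 2.18 CPM in the 4 libraries that stood apart, against a median of 19.3 CPM over all cows. Non-pregnant replicate 19, not among the 4, also had only 1.07 CPM.

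All 3 list genes with a negative call were DOWN genes. CTBP2, a transcriptional co-repressor, had a rho of -0.83 with EBF4 (permutation p = 2e-05, adjusted p = 0.0022). Pearson's r was -0.66 (permutation p = 0.0066), or -0.68 without the 2 cows farthest in EBF4, with pregnant replicate 21 kept. CTBP2 was highest in pregnant replicate 21, at 132.5 CPM, where EBF4 had 5.85 CPM. It was lowest in pregnant replicate 17, at 54.8 CPM, where EBF4 had 13.0 CPM. STAG2, a subunit of cohesin, had a rho of -0.79 (adjusted p = 0.0027) and WDR20, a WD repeat partner of deubiquitinases, -0.63 (adjusted p = 0.041). PAXIP1, a protein of the DNA damage response and an UP gene, had a rho of -0.53 with EBF4, which did not pass.

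Over the whole list, rho with EBF4 was positive for 26 of 31 UP genes (median 0.46) and for 3 of 17 DOWN genes (median -0.33). Over all genes, 7425 of 14851 had a positive rho. The sign of rho followed the study's direction for most list genes within pregnancy groups, where group means had been removed. EBF4, the list and its directions were chosen partly on cows of this series. Removing group means does not undo that choice, so the shared sign is a description.

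**Figure D3:**
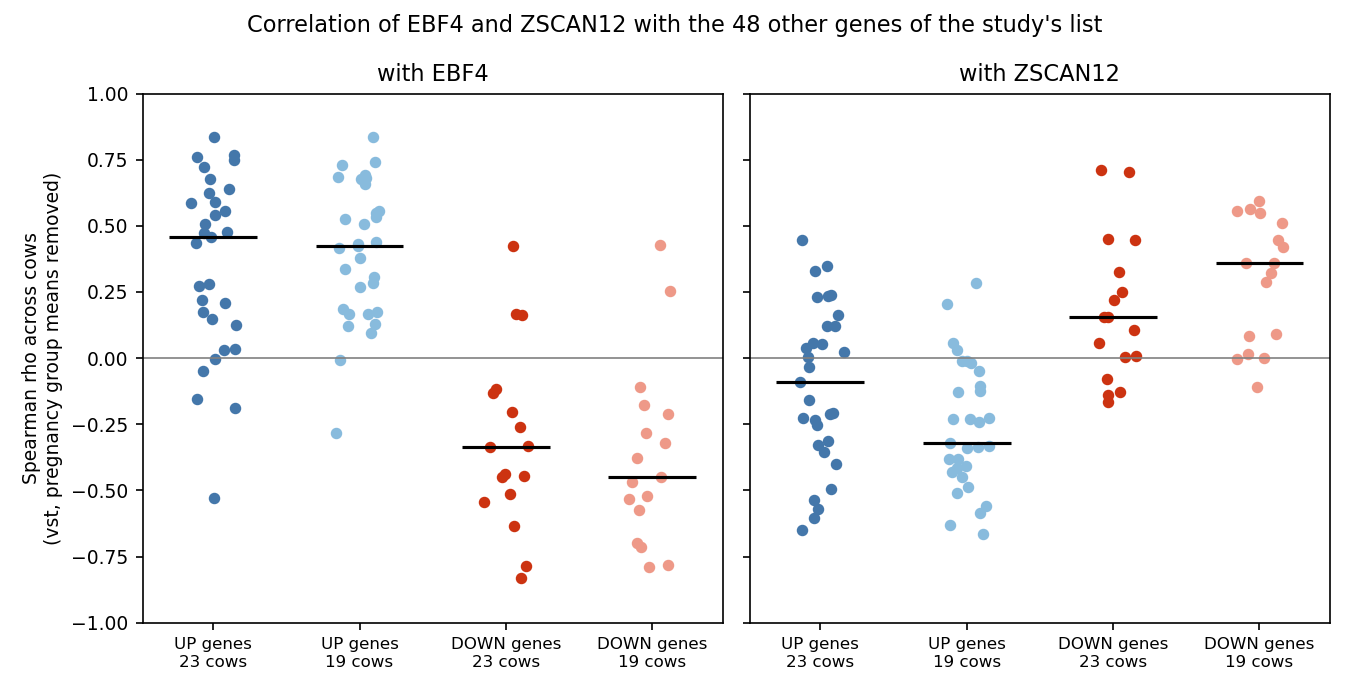
Spearman's rho of EBF4 (left) and ZSCAN12 (right) with each of the 48 other list genes, 31 UP and 17 DOWN, over all 23 cows (dark points) and over the 19 cows without the 4 libraries apart (light points); black lines are medians. With EBF4 the UP median is 0.46 and the DOWN median -0.33 over 23 cows, and with ZSCAN12 they are -0.09 and 0.15.

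The calls with EBF4 changed with the libraries included. Leaving out libraries also leaves fewer cows and less power, and the part of this in the changes was not tested. Without the 4 libraries, 440 genes passed (2.96%), 266 of them positive (1.79%) and 174 negative (1.17%). Among them were 6 of the list: PPIC, RARRES1, STAG2 and CTBP2 again, and HHEX (a homeobox transcription factor, rho 0.74) and SLC35A3 (a Golgi transporter of nucleotide sugars, rho -0.78). SLC35A3 had a rho of -0.20 over all 23 cows, with 70.9 to 93.1 CPM in the 4 libraries against a median of 159.7 CPM over all cows. In the other 19 libraries it ran from 77.0 to 360.9 CPM, so the ranges overlapped. Without all 6 libraries, 42 genes passed (0.283%) and 0 of the list, with 15 of the 48 list genes at an unadjusted p under 0.05 beside 14.2% of all genes. The 11 genes called over all cows all kept their sign there, at rho of 0.26 to 0.73 in size, in 17 cows instead of 23. With the first component and the share of reads outside genes removed from all 23 cows, 1225 genes (8.25%) and 8 of the list passed, but only 4 of the 11 were among these 8: PPIC, ROR2, RARRES1 and CLECL1. The permutations made no allowance for removing these measures, so p-values in this setting may be too small. The 3 negative calls were lost (adjusted p = 0.071 for CTBP2, 0.136 for STAG2 and 0.131 for WDR20), and HHEX, SLC35A3, ACADM and SUCLG2 passed instead, the last named after its value was seen. Without pregnant replicates 20 and 21, 968 genes (6.52%) and 9 of the list passed. MYH10, TLE4 and WDR20 lost their calls there (adjusted p = 0.072 to 0.116), and TSPAN6, named after its value was seen, gained one.

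Among all genes, the pattern most like EBF4 was that of ENSBTAG00000005799 (rho 0.96 over 23 cows) and ENSBTAG00000006214 (0.96). Both had the smallest p that the permutations can give (1e-05, adjusted p = 0.0016), and rho was 0.85 and 0.82 without the 6 libraries. The most opposite patterns were those of ENSBTAG00000016038 and ENSBTAG00000019639, both at -0.88, with -0.74 and -0.86 without the 6 libraries. No symbols were paired with these identifiers here.

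Fewer genes passed with ZSCAN12 than with EBF4. Unadjusted permutation p was under 0.05 for 3580 genes (24.1%) with ZSCAN12 and 3687 (24.8%) with EBF4. Over the 23 cows 708 genes passed (4.77% of all genes), 339 positive (2.28%) and 369 negative (2.48%), and 3 of the 48 list genes. CCNG2 (cyclin G2, which is linked to cell cycle arrest) had a rho of 0.71 (permutation p = 0.00033, adjusted p = 0.028). Its Pearson's r was 0.74 (permutation p = 6e-05), and 0.71 without the 2 cows farthest from the median of ZSCAN12 (non-pregnant replicates 1 and 4). CCNG2 was lowest, at 17.1 CPM, in non-pregnant replicate 4, the cow with the lowest ZSCAN12. SLC35A3 had a rho of 0.70 with ZSCAN12 (adjusted p = 0.028) and was lowest in the same cow.

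BHLHE40, a basic helix-loop-helix repressor that takes part in the circadian clock, had a rho of -0.65 with ZSCAN12 (permutation p = 0.0014, adjusted p = 0.042). Pearson's r was -0.64 (permutation p = 0.0014), and -0.59 without the 2 cows farthest in ZSCAN12, with pregnant replicate 23 (552.1 CPM of BHLHE40) kept. BHLHE40 ran from 30.6 to 552.1 CPM in the 4 libraries apart on the first component and from 8.54 to 64.8 CPM in the other 19. CCNG2 and SLC35A3 are DOWN genes, as ZSCAN12 is, and BHLHE40 is an UP gene. These 3 calls were 6.25% of the list, beside 4.77% of all genes. None of the 3 was among the 11 list genes (22.9%) called with EBF4. With so few calls, this lack of overlap is not a result about the genes.

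The next list genes by rho with ZSCAN12 did not pass. These were PIK3C3 (the class III phosphoinositide kinase of autophagy, 0.45), ACADM (medium-chain acyl-CoA dehydrogenase of fatty acid oxidation, 0.45) and SYT1 (synaptotagmin 1, 0.45) at the positive end. At the negative end were TRIB1 (a pseudokinase, -0.60), DIDO1 (a chromatin-binding protein, -0.57), SEL1L (an adaptor of endoplasmic reticulum degradation, -0.54) and HHEX (-0.50). In all, rho was positive for 13 of 17 DOWN genes (median 0.15) and 14 of 31 UP genes (median -0.09). Over the 19 libraries without those apart it was positive for 15 of 17 DOWN genes (median 0.36) and 4 of 31 UP genes (median -0.32), beside 48.9% of all genes. ZSCAN12, the list and its directions were chosen partly on cows of this series. These signs, and those of the calls above, are therefore a description.

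Without pregnant replicates 20 and 21, 637 genes (4.29%) passed with ZSCAN12. CCNG2 kept its call, TRIB1 gained one, and SLC35A3 and BHLHE40 lost theirs (adjusted p = 0.053 and 0.052). Without the 4 libraries, 0 genes passed with ZSCAN12 (0.0%), with 1975 at an unadjusted p under 0.05 and rho of 0.55 for CCNG2, 0.55 for SLC35A3 and -0.45 for BHLHE40. The same held without all 6 libraries (0 genes, 1315 under 0.05). It also held when the first component and the share of reads outside genes were removed (0 genes, 1012 under 0.05), where BHLHE40 had a rho of 0.0099. None of the 3 list genes was called with ZSCAN12 in these 3 settings. Among all genes, ENSBTAG00000024801 was most like ZSCAN12 (rho 0.84, and 0.75 without the 6 libraries), followed by ENSBTAG00000004427 (0.82). ENSBTAG00000038062 was most opposite (-0.85, and -0.78 without the 6 libraries), followed by ENSBTAG00000012460 (-0.83).

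**Figure D4:**
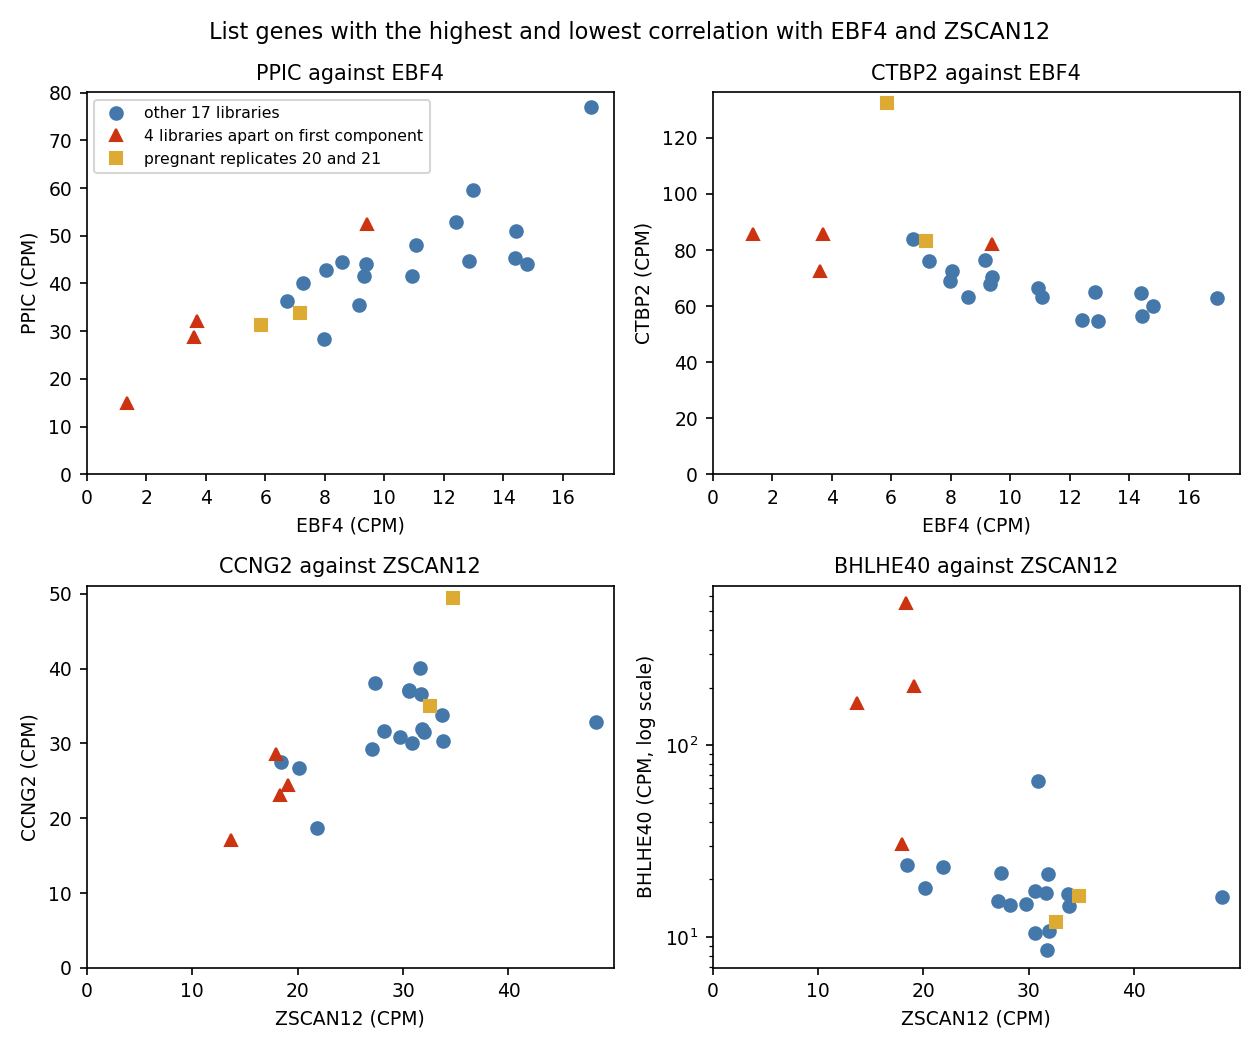
List genes with the highest and the lowest rho with EBF4 (top, PPIC and CTBP2) and with ZSCAN12 (bottom, CCNG2 and BHLHE40), in CPM, 1 point per cow, with BHLHE40 on a log axis. PPIC rises with EBF4 (rho 0.84) and CTBP2 falls (-0.83); BHLHE40 is at 30.6 to 552.1 CPM in the 4 libraries marked by red triangles, where ZSCAN12 is at 13.7 to 19.1 CPM.

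EBF4 and ZSCAN12 had no correlation with each other that passed. Over all 23 cows Spearman's rho was -0.0099 (permutation p = 0.967, adjusted p = 0.986 over all genes), and Pearson's r was 0.25 (permutation p = 0.225, adjusted p = 0.371), or -0.06 without the 2 cows farthest from the median of EBF4 (non-pregnant replicate 6 and pregnant replicate 22) and 0.37 without the 2 farthest for ZSCAN12 (non-pregnant replicates 1 and 4). Without the 4 libraries set apart by the first component, rho was -0.51 (permutation p = 0.030, adjusted p = 0.212 over all genes), and without the 6 libraries -0.45 (p = 0.071, adjusted p = 0.402). Neither passed the correction. The cow with the highest EBF4, pregnant replicate 7, had 21.8 CPM of ZSCAN12, and the cow with the highest ZSCAN12, non-pregnant replicate 1, had 7.96 CPM of EBF4.

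**Figure D5:**
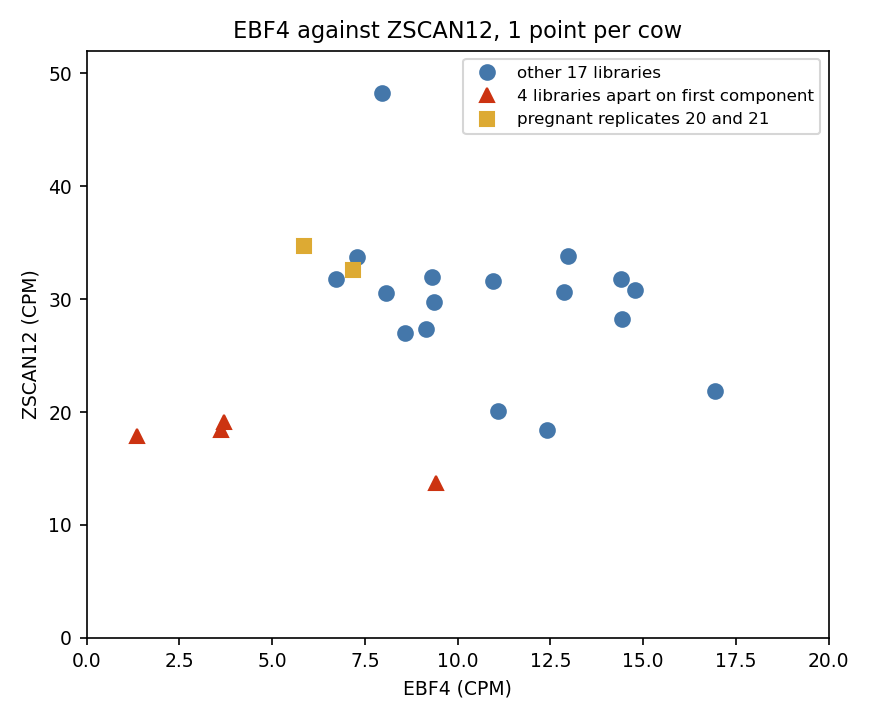
EBF4 (x axis, CPM) against ZSCAN12 (y axis, CPM), 1 point per cow. The 4 libraries apart (red triangles) lie at 13.7 to 19.1 CPM of ZSCAN12, and rho is -0.0099 over all 23 cows and -0.51 without these 4.

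Measures of the library itself moved with both genes in the 19 libraries that did not stand apart on the first component. This subset was chosen after seeing the data. Within it, EBF4 rose with the log2 of the counts in genes. Its rho was 0.61 (permutation p = 0.0086, adjusted p = 0.035 over 8 relations) and Pearson's r 0.75 (permutation p = 0.0011, adjusted p = 0.0092), but r was 0.40 without pregnant replicates 20 and 21, the 2 libraries farthest from the median. ZSCAN12 fell with the same measure, with a rho of -0.65 (permutation p = 0.0035, adjusted p = 0.028) and an r of -0.58 (permutation p = 0.0092, adjusted p = 0.025), and r was -0.65 without those replicates. ZSCAN12 also rose with the share of reads outside genes (rho 0.55, permutation p = 0.017, adjusted p = 0.046), while its r of 0.47 did not pass (permutation p = 0.033, adjusted p = 0.053) and was 0.51 without the same replicates. For EBF4 that share had a rho of -0.39, which did not pass (permutation p = 0.109, adjusted p = 0.175), and an r of -0.63 (permutation p = 0.014, adjusted p = 0.027) that was -0.04 without replicates 20 and 21.

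Over all 23 cows, EBF4 passed with the log2 counts in genes (rho 0.53, adjusted p = 0.043; r 0.39, adjusted p = 0.198), with the share of reads outside genes (rho -0.53, adjusted p = 0.043; r -0.45, adjusted p = 0.132) and with the share of ambiguous reads (rho 0.71, adjusted p = 0.0059; r 0.59, adjusted p = 0.013), all by permutation. That last share was at most 0.0094% of reads in any library. ZSCAN12 did not pass with any of the 3 (rho -0.38, 0.23 and 0.00099). On the first component the 4 libraries form a cluster of their own, so the relation is given within the other 19. There rho with it was 0.03 for EBF4 and -0.06 for ZSCAN12 (permutation p = 0.911 and 0.805). Without pregnant replicates 20 and 21 as well, EBF4 passed by rank (rho 0.65, permutation p = 0.0070, adjusted p = 0.041) but not by Pearson's r (0.44, adjusted p = 0.165), and ZSCAN12 did not pass (rho -0.35, permutation p = 0.187). The part of depth and of the reads outside genes in the differences between cows was not tested.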

How the data were processed

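RNA sequencing (TruSeq stranded total RNA) of 23 endometrial biopsies was analysed. The deposited values are raw counts per Ensembl gene, which per the submitters' processing notes the authors obtained with HTSeq from STAR alignments to UMD3.1. Tool versions, annotation release and strand setting: not given in the sources used here. Replicate numbers are those of the titles. No pair of libraries in a group looked like one library counted again (over 121 pairs, the chi-square divided by its degrees of freedom was 30.5 or more).

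Counts were analysed in R 4.3.3. Of 24616 genes, 14852 passed the default filter of edgeR 4.0.16 and were normalized by TMM. Parity class, days from calving and their model terms were tested with edgeR's quasi-likelihood test at a Benjamini-Hochberg adjusted p of 0.05 over all genes tested, with pregnancy status in the model. The vst of DESeq2 1.42.0, made blind to groups, gave the first component and the correlations, which were tested by 100000 two-sided permutations within pregnancy groups. All p-values measure the spread between cows. The pipeline was tested on simulated data. Intervals of counts cover counting error only.

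The members, lists and tests were chosen with earlier results of these data known. Named were EBF4, ZSCAN12, the 5 highest and 5 lowest list genes by rho with each, those that passed, and at most 2 identifiers per direction among all genes. One gene that this rule names is not reported here. The 48 list genes enter every count, and the symbols come from the study's list. Other gene lists (EBF and SCAN families, cell type markers) were not used, because 0 identifiers were matched to symbols in the RefSeq table. Alternatives were DESeq2 size factors, other filters, DESeq2's Wald test, other covariates, log2 CPM with prior count 2, no centring, Pearson's r and leaving out libraries. The rank test on days and the library relations without libraries were chosen after seeing the data.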

Additional observations from a re-analysis of the deposited data

How the results depend on the processing

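The parity and days results of both genes stayed on the same side of the threshold under each alternative run, with adjusted p from 0.607 to 1.000, and the pregnancy differences were not tested. Values near 0 changed sign, and so did the EBF4 interaction and some of the larger correlations. The EBF4 parity difference was 0.013 with parity as a linear term, 0.021 without pregnant replicates 20 and 21, and -0.11 to 0.080 with each cow left out in turn. The ZSCAN12 days slope was -0.091 with parity in the model and -0.039 to 0.10 with each cow left out. The EBF4 pregnancy difference kept its sign, at 0.14 to 0.35 with each cow left out. The ZSCAN12 pregnancy difference was 0.0027 with parity and days in the model and -0.14 to 0.044 with each cow left out. The EBF4 interaction, 0.40 over all cows, was -0.12 without the 4 libraries set apart by the first component. DESeq2, run without edgeR's filter on low counts, called 1 gene for the interaction. The correlation of EBF4 with ZSCAN12 was 0.022 on log2 CPM, 0.025 without centring, 0.25 as Pearson's r, 0.17 without pregnant replicates 20 and 21 and -0.17 to 0.077 with each cow left out.

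Genes called with EBF4 numbered 1301 (11 of the list) in the reported test, 3827 (17) by Pearson's r, 440 (6) without the 4 libraries and 42 (0) without 6. With ZSCAN12 they numbered 708 (3), 2773 (7) by Pearson's r and 0 (0) without 4, without 6, or with the first component and the share of reads outside genes removed. With these removed, rho turned to 0.12 for EBF4 with PAXIP1, and for ZSCAN12 to 0.0099 with BHLHE40, 0.041 with DIDO1 and -0.048 with SYT1; PAXIP1 was at 0.28 without 6 libraries. Fewer cows also leave less power, and the cause of the other changes was not tested.

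Among library measures, without the 4 libraries, EBF4 had rho 0.030 with the first component, 0.48 with ambiguous reads and -0.39 with reads outside genes, and ZSCAN12 -0.28 with ambiguous reads, -0.65 with log2 counts and 0.55 with reads outside genes. Without pregnant replicates 20 and 21, EBF4 had 0.39 with log2 counts and -0.32 with reads outside genes, and ZSCAN12 -0.60 with the first component, over 21 libraries that hold the 4 apart as a separate cluster (-0.35 without these as well). Without 6, EBF4 had 0.65 with the first component, 0.45 with log2 counts, 0.086 with ambiguous reads and -0.069 with reads outside genes, and ZSCAN12 -0.17 with ambiguous reads and -0.62 with log2 counts. No paired analysis was possible because each replicate number belongs to 1 cow and the groups share none.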
